A study of Mus musculus with 6 samples.

Results

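The duodenal iron absorption genes are 10 genes that together carry dietary iron through the epithelium of the proximal intestine or control that passage. They were taken by symbol from the gene tables of 6 RNA sequencing libraries, in which all 10 of the 10 symbols were found among 23235 symbols in 23699 rows, and all 10 passed the filter of a mean of at least 0.1 FPKM (fragment counts corrected for transcript length and sequencing depth). The rule names the genes by symbol and has no threshold on a measured value.

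Iron in food reaches the duodenum mostly in its oxidised form, is reduced at the brush border, and enters the enterocyte through a proton-coupled metal transporter. Inside the cell it is either stored in ferritin, and lost when the cell is shed, or exported at the basolateral side through ferroportin with the help of a copper-dependent oxidase. Iron regulatory proteins adjust these steps by binding hairpins in the messenger RNAs, and the hypoxia-inducible factor HIF-2α raises transcription of the uptake and export genes in the enterocyte when iron or oxygen is low.

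The mutant mice, called TNint, were Nkx2.2flox/TN; Villin-Cre/+; Rosa26Tomato/+ (n = 3). Controls 1 and 2 were Nkx2.2flox/+; Rosa26Tomato/+, and control 3 was Nkx2.2flox/+ with no reporter allele named (n = 3). All 6 animals were 6 weeks old, of mixed background and carried a floxed Nkx2.2 allele, and each library came from the whole wall of the first 2 cm of duodenum of 1 mouse. Villin-Cre is active in the intestinal epithelium, and TN, as the study is known, is a mutation in the tinman domain of Nkx2.2, a transcription factor of enteroendocrine cells, so that mutant epithelium keeps the TN copy alone. No control carried Cre, so effects of Cre and of the TN allele cannot be told apart.

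Nkx2-2 itself was at 0.748, 0.744 and 0.666 FPKM in mutants 1, 2 and 3, against 1.00, 1.03 and 1.27 FPKM in controls 1, 2 and 3. Depth implied by the authors' confidence intervals was 16.9, 25.9 and 22.0 M reads (megareads) in mutants 1, 2 and 3, and 14.2, 21.2 and 19.9 M reads in controls 1, 2 and 3. The labels name no sex. Xist and Y-linked genes gave 2 male and 1 female library in each group, the female ones being mutant 3 and control 3. All 15 enterocyte markers were present, with a summed level of 25316 to 34129 FPKM in mutants and 22020 to 33820 FPKM in controls. The 10 markers of pancreatic acinar cells summed to 2285, 2514 and 10329 FPKM in mutants 1, 2 and 3, and to 55.8, 383 and 9160 FPKM in controls 1, 2 and 3. The 2 female libraries were therefore also the 2 highest in pancreatic RNA. Smooth muscle markers summed to 492 to 649 FPKM in mutants and 663 to 924 FPKM in controls, with no overlap. Stomach markers summed to 181, 162 and 76.8 FPKM in mutants 1, 2 and 3, and to 531, 22.6 and 205 FPKM in controls 1, 2 and 3. The parts of sex, pancreatic RNA, muscle and stomach RNA in the results below were not tested except where a fit with them is given.

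Iron-responsive hairpins found in these genes are shown because they are what the iron regulatory proteins read, and because for Slc11a2 only 1 of the 2 measured transcripts carries one. The annotated UTRs (GENCODE vM1 on mm9, sense strand) were searched for a C, any 5 bases, a loop CAGTGN and 5 bases that pair with the first 5, with at most 1 unpaired base on the 3′ side. This found 8 hairpins in 5 of the 10 genes, each printed as 30 bases of mm9, 5′ to 3′, with the loop in capitals. The search misses hairpins of another shape or outside the annotated UTRs. A gene with no match, Epas1 among them, is therefore not shown to lack one. They lie at chr15:100225583-100225612 (minus strand, 3′ UTR) for Slc11a2, chr1:45982309-45982338 (minus, 5′ UTR) for Slc40a1, chr19:10057222-10057251 (plus, 5′ UTR) for Fth1, and chr7:52715148-52715177 (minus, 5′ UTR) for Ftl1. Those of Tfrc lie in its 3′ UTR on the plus strand, at chr16:32631305-32631334, chr16:32631684-32631713, chr16:32631749-32631778 and chr16:32631796-32631825.
Slc11a2: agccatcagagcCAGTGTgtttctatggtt
Slc40a1: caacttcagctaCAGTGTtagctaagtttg
Fth1: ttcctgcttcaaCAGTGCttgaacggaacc
Ftl1: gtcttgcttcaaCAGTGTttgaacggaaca
Tfrc site 1: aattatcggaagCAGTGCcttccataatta
Tfrc site 2: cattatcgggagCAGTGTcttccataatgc
Tfrc site 3: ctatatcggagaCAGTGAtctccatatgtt
Tfrc site 4: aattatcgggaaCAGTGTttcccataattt

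The Slc11a2 hairpin needed the unpaired base, and the other 7 paired without one. Over all genes, a hairpin with no unpaired base was found in the 5′ UTRs of 33 of 19854 genes (0.166%) and the 3′ UTRs of 124 of 19915 genes (0.623%), and with 1 unpaired base in 0.252% and 1.06%. The 2 ferritin windows were identical at 26 of 30 bases. In the textbook account a hairpin in the 5′ UTR (both ferritins and ferroportin) lets bound regulatory protein block translation, while hairpins in the 3′ UTR of Tfrc keep the messenger RNA from being degraded. RNA sequencing reads the amount of message, so it can show the second kind of control and not the first.

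None of the 10 genes was called different between the groups. In limma on log2(FPKM + 0.1), with Benjamini-Hochberg adjustment over 15864 rows, the adjusted p was under 0.05 for 0 of 10 genes and for 0 of all rows (0.0%). At an unadjusted p under 0.05 the count was 1 of 10 (Tfrc, lower in mutants), against 922 of all rows (5.81%), of which 237 were higher (1.49%) and 685 lower (4.32%). With trimmed mean scaling that split was 446 higher and 453 lower. The log2 fold changes of mutant over control were positive for 8 genes and negative for 2, with a median of 0.06 beside −0.05 over all rows, and with quantile normalization 4 of the positive ones turned negative (Slc40a1, Heph, Ftl1 and Aco1). In the authors' deposited table, which passed 7 of 18541 rows (0.0378%), every one of the 10 had an adjusted p of 1. In a whole-wall sample, fewer cells of a type and less RNA per cell cannot be told apart.

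**Figure D1:**
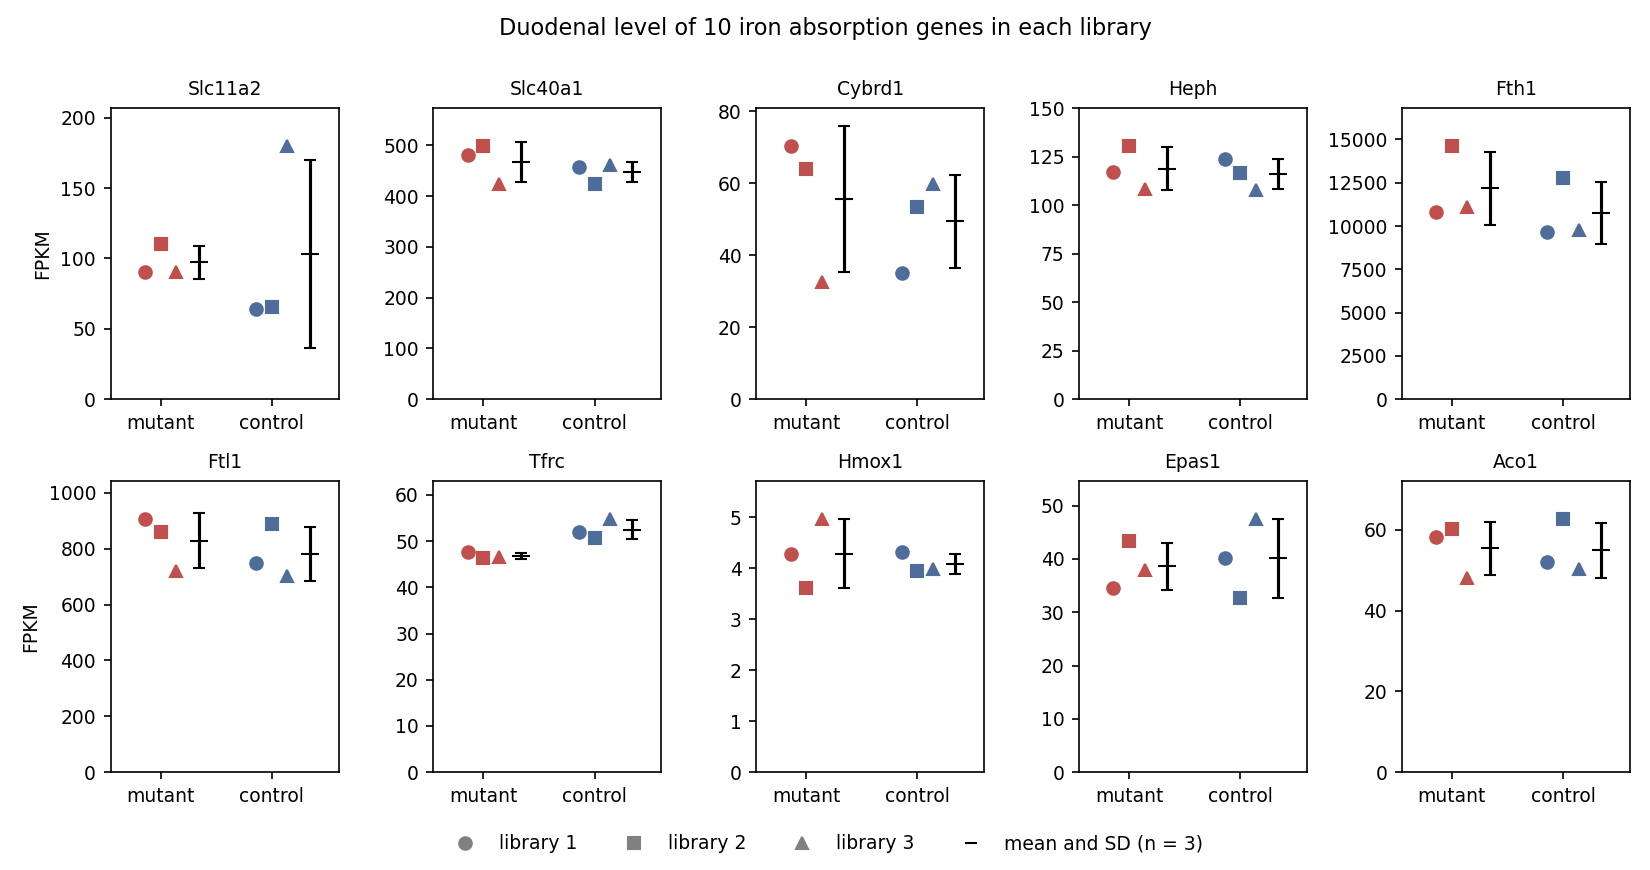
FPKM of each of the 10 genes in every library, mutants in red left of controls in blue, with circles, squares and triangles for libraries 1, 2 and 3 and bars for the mean and SD (n = 3). Tfrc is the 1 gene whose groups do not overlap, at 46.4 to 47.6 FPKM in mutants and 50.6 to 54.8 FPKM in controls, and control 3 stands alone for Slc11a2 at 180.1 FPKM.

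**Figure D2:**
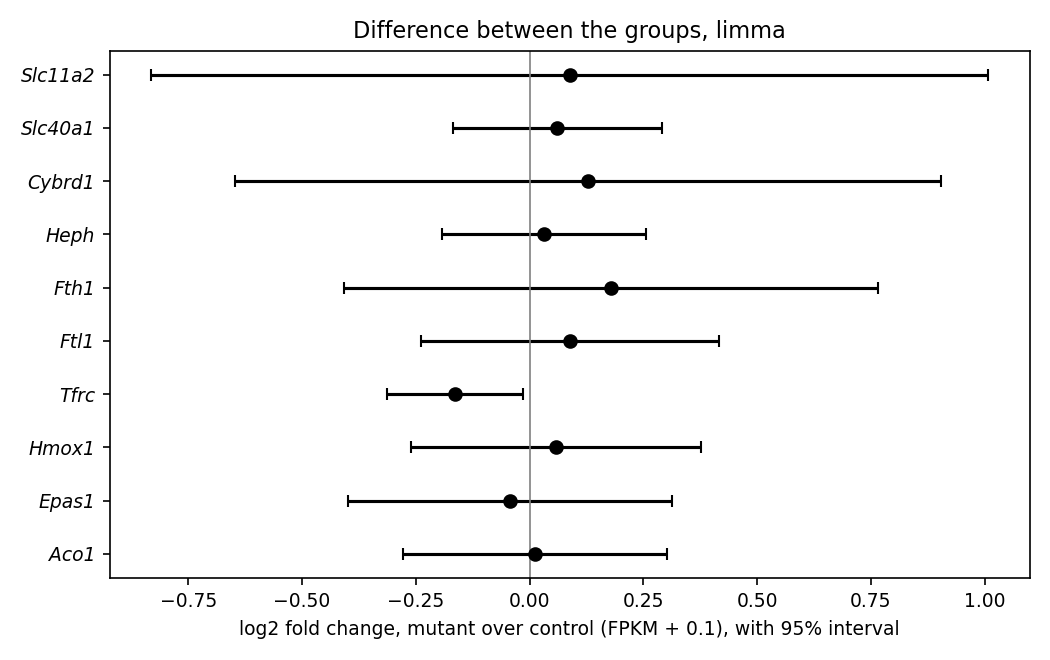
Log2 fold change of mutant over control for each gene from limma, with its 95% interval. The intervals of Slc11a2 (−0.83 to 1.01) and Cybrd1 (−0.65 to 0.90) are the widest, and that of Tfrc (−0.31 to −0.01) is the only one that leaves out 0.

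Reduction and uptake at the brush border come first. Cybrd1 encodes the duodenal ferric reductase DCYTB (chr2:70956111-70980983, plus strand). It was at 70.3, 63.9 and 32.4 FPKM in mutants 1, 2 and 3, against 35.0, 53.5 and 59.7 FPKM in controls 1, 2 and 3. The lowest library was a mutant and so was the highest, and the ranges overlapped almost wholly. The means were 55.6 ± 20.3 FPKM in mutants and 49.4 ± 12.9 FPKM in controls (SD, n = 3 each), a log2 fold change of 0.13 (SE 0.33, limma adjusted p = 0.95). Its interval allows anything between 0.638 and 1.87 times the control level. Cybrd1 was among the more variable genes: among 500 genes of like level, its within-group SD stood at the 97th percentile.

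Slc11a2 encodes DMT1, the proton-coupled transporter that brings ferrous iron into the enterocyte (chr15:100218331-100253486, minus strand). It was at 90.7, 110.7 and 90.3 FPKM in mutants 1, 2 and 3, against 63.9, 65.5 and 180.1 FPKM in controls 1, 2 and 3. All 3 mutants lay above controls 1 and 2 and below control 3. The means were 97.2 ± 11.6 FPKM in mutants and 103 ± 66.6 FPKM in controls (SD, n = 3 each), and the log2 fold change was 0.09 (SE 0.39, limma adjusted p = 0.97). The authors' deposited table gives a log2 fold change of −0.07 for it, of the other sign because it compares arithmetic means, and in it too the gene did not pass. Without control 3 the log2 fold change was 0.58 (limma adjusted p = 0.76), and with the pancreatic marker level as a covariate it was −0.40 (limma adjusted p = 0.83). Counting error is far smaller than this spread, since the authors' interval for Slc11a2 reached 1.67% to 3.44% on either side of the value. Its within-group SD stood at the 95.4th percentile of genes of like level. The annotated gene Gm5475 overlaps Slc11a2 on the other strand, and whether counting used strand is not stated.

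The 2 transcripts of Slc11a2 end differently. NM_001146161 (chr15:100223089-100253486, 4373 bases) ends at the same base as an annotated GENCODE transcript whose 3′ UTR holds the hairpin printed above, and NM_008732 (chr15:100218331-100253486, 3023 bases) ends farther downstream, within 2 bases of an annotated transcript that lacks it. The form with the hairpin was at 79.3, 96.1 and 73.6 FPKM in mutants 1, 2 and 3, against 51.5, 54.2 and 166.9 FPKM in controls 1, 2 and 3. The form without it was at 11.4, 14.6 and 16.7 FPKM in mutants 1, 2 and 3, against 12.4, 11.3 and 13.2 FPKM in controls 1, 2 and 3. Most of the spread of the gene was in the hairpin form, whose highest library was 3.24 times its lowest, against 1.47 times for the other form.

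Neither form was called different between the groups. For NM_001146161 the log2 fold change was 0.09 (95% interval −1.04 to 1.22, limma adjusted p = 0.98), and for NM_008732 it was 0.19 (−0.19 to 0.57, limma adjusted p = 0.86). Over all transcripts, 9 of 19827 passed (0.0454%), and 0 with the replicate number as a block. In control 3 the hairpin form was 3.16 times the mean of controls 1 and 2, and the other form 1.11 times. Of the 115 FPKM by which the gene in control 3 exceeded controls 1 and 2, the hairpin form made up 98.8%. Of the smaller amounts by which mutants 1, 2 and 3 exceeded the same 2 controls, it made up 102%, 94.1% and 81.1%.

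As a share of both transcripts, the hairpin form was 87.5%, 86.8% and 81.5% in mutants 1, 2 and 3, against 80.6%, 82.7% and 92.7% in controls 1, 2 and 3. The means were 85.3 ± 3.29% and 85.3 ± 6.45% (SD, n = 3 each), a difference of −0.05 percentage points (exact two-sided permutation p = 1, the smallest possible being 0.10). The annotated transcripts that match them at the 3′ end have last exons that do not overlap (chr15:100223089-100225754 and chr15:100218329-100219592). Reads in the exons that both forms share were divided by the authors' estimate, so the 2 levels are not fully separate measurements.

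**Figure D3:**
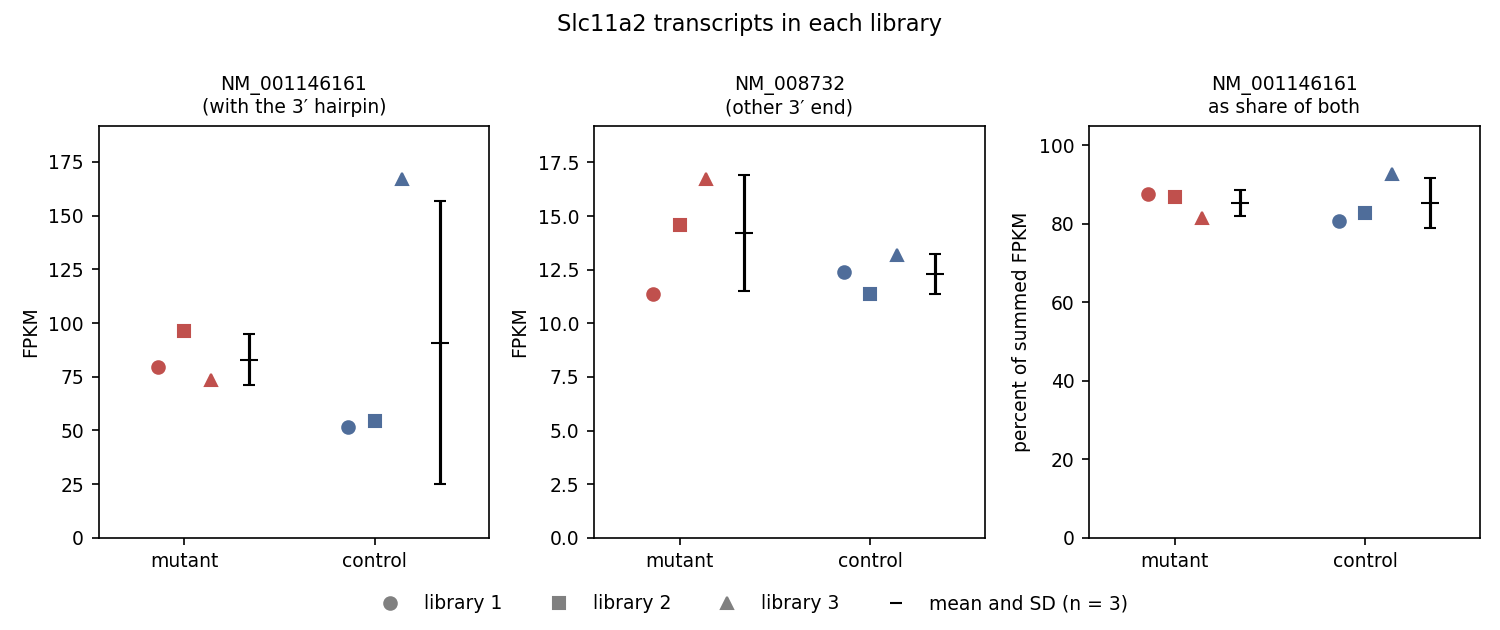
FPKM of the 2 Slc11a2 transcripts, and the hairpin form as a percent of their sum, in every library, mutants in red left of controls in blue, with the mean and SD (n = 3). Control 3 is high for NM_001146161 (166.9 FPKM) and, at 13.2 FPKM, between the lowest and highest mutant for NM_008732.

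Control 3 was 1 of the 2 female libraries, 1 of the 2 with the most pancreatic RNA and the 1 animal with no reporter allele named. Mutant 3 shared the first 2 features and had 90.3 FPKM of Slc11a2, close to mutant 1. Among the 4 male libraries the log2 fold change of mutant over control was 0.63 for Slc11a2 and 0.63 for Cybrd1, each with a limma adjusted p of 0.94. A test of the difference in effect between the sexes, added after seeing the data, passed adjustment for 0 of the 10 genes (0.0126% of all rows) and had an unadjusted p under 0.05 for 2 of them, Slc11a2 and Cybrd1 (2.86% of all rows).

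By the rule of highest Pearson r over the 6 libraries, among 12569 rows with a mean of at least 1 FPKM, the patterns most like Slc11a2 were those of Arrdc3 (r = 0.99), Lrg1 (0.97) and 6430548M08Rik (0.95). Lrg1 was at 1.93, 2.00 and 2.16 FPKM in mutants 1, 2 and 3, against 1.06, 1.20 and 5.47 FPKM in controls 1, 2 and 3, so it too was highest in control 3. Arrdc3 was also highest in control 3 but over a narrow range, at 12.1 to 13.1 FPKM in mutants and 11.2 to 14.2 FPKM in controls. For Cybrd1 the nearest were Foxk2 (r = 0.98), Zfp937 (0.97) and Samd14 (0.97). With so many rows and 6 libraries, 32 rows passed r = 0.9 with Slc11a2 and 22 with Cybrd1, and these likenesses are descriptions only.

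The export genes varied less. Slc40a1 encodes ferroportin, the iron exporter of the basolateral membrane (chr1:45964915-45982439, minus strand). It was at 480.5, 499.2 and 423.8 FPKM in mutants 1, 2 and 3, against 457.3, 424.5 and 461.4 FPKM in controls 1, 2 and 3, and the groups overlapped. The means were 467.9 ± 39.3 FPKM in mutants and 447.7 ± 20.2 FPKM in controls (SD, n = 3 each), with a log2 fold change of 0.06 (SE 0.10, limma adjusted p = 0.91). The interval runs from 0.890 to 1.22 times the control level. Slc40a1 has 1 transcript in the tables, NM_016917 (3380 bases), with the same values and a log2 fold change of 0.06 (limma adjusted p = 0.91 over the transcript table). Nearest to its pattern were Rnf113a2 (r = 0.99), Zfp691 (0.98) and 1810029B16Rik (0.97), among 18 rows above 0.9.

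Heph encodes hephaestin, the copper-dependent oxidase that works with ferroportin (chrX:93650775-93769823, plus strand). Its levels were 117, 131 and 108 FPKM in mutants 1, 2 and 3, against 124, 117 and 108 FPKM in controls 1, 2 and 3. The groups lay on top of each other, at 119 ± 11.1 FPKM in mutants and 116 ± 7.94 FPKM in controls (SD, n = 3 each), and the log2 fold change was 0.03 (SE 0.09, limma adjusted p = 0.97). The tables divide Heph among 4 transcripts, and the annotated gene Hsf3 and 2 pseudogenes lie within it.

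The ferritin messages were the most abundant of the 10. Fth1, the heavy chain of ferritin, which oxidises iron for storage (chr19:10057193-10059582, plus strand), was at 10797, 14629 and 11077 FPKM in mutants 1, 2 and 3, against 9664, 12794 and 9743 FPKM in controls 1, 2 and 3. Library 2 was the highest in each group, and the groups overlapped. The log2 fold change was 0.18 (95% interval −0.41 to 0.77, limma adjusted p = 0.89). Ftl1, the light chain, which helps the iron core form (chr7:52713314-52715256, minus strand), was at 907, 861 and 721 FPKM in mutants 1, 2 and 3, against 748, 889 and 703 FPKM in controls 1, 2 and 3. Here too the groups overlapped, with library 3 the lowest in each, and the log2 fold change was 0.09 (−0.24 to 0.42, limma adjusted p = 0.90). Both ferritin genes have near-identical processed copies in the mouse genome, so reads may have been divided among them and their levels are uncertain.

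Uptake from the blood side and the breakdown of heme were measured by Tfrc and Hmox1. Tfrc encodes transferrin receptor 1, the receptor for iron bound to transferrin, used mostly by dividing crypt cells in the intestine (chr16:32608982-32632880, plus strand). It was at 47.6, 46.4 and 46.5 FPKM in mutants 1, 2 and 3, against 52.1, 50.6 and 54.8 FPKM in controls 1, 2 and 3. Every mutant lay below every control, as in 1574 of the 15864 rows (9.92%), and in 13.1% of rows the groups did not overlap in either direction. The means were 46.8 ± 0.679 FPKM in mutants and 52.5 ± 2.14 FPKM in controls (SD, n = 3 each), a log2 fold change of −0.16 (95% interval −0.31 to −0.01). This did not pass the adjustment over all rows (limma adjusted p = 0.79).

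Tfrc was the steadiest of the 10 within groups, at the 3.6th percentile of genes of like level for its SD. The authors' interval reached 2.67% to 3.40% on either side of each value, which is more than 1 standard error of counting. Among mutants Tfrc had a CV of 1.45%, of the order of that standard error. Its log2 fold change stayed between −0.22 and −0.12 over the other settings tried and between −0.19 and −0.13 with any 1 library left out, and the smallest limma adjusted p among those settings was 0.61. Crypt and cell cycle markers summed to 379 to 472 FPKM in mutants and 404 to 477 FPKM in controls, overlapping, while the smooth muscle sums given above did not overlap. Their part in the Tfrc values was not tested.

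Hmox1 encodes heme oxygenase 1, which frees iron from heme (chr8:77617517-77624492, plus strand). It was at 4.28, 3.60 and 4.96 FPKM in mutants 1, 2 and 3, against 4.31, 3.95 and 3.99 FPKM in controls 1, 2 and 3. Mutants held both the lowest and the highest value, and the log2 fold change was 0.06 (95% interval −0.26 to 0.38, limma adjusted p = 0.95). As the least abundant of the 10, it rested on 83 to 148 implied reads a library. The authors' interval, taken as 2 standard errors, reached 16.4% to 22.0% on either side of each value. The CV of Hmox1 among mutants was 15.9%, which is 1 SD, so the 2 measures are not on the same scale. Red cell markers summed to 30.6 to 146 FPKM in mutants and 23.9 to 107 FPKM in controls, with Slc4a1 at 0 in every library, and macrophage markers to 369 to 400 FPKM in mutants and 355 to 412 FPKM in controls.

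Neither regulator was called different. Epas1 encodes HIF-2α, the hypoxia-inducible factor subunit that drives Slc11a2, Cybrd1 and Slc40a1 in the mouse duodenum (chr17:87153204-87232750, plus strand). It was at 34.6, 43.4 and 38.0 FPKM in mutants 1, 2 and 3, against 40.2, 32.6 and 47.5 FPKM in controls 1, 2 and 3. Controls held both the lowest and the highest value, with control 3 on top as for Slc11a2. The log2 fold change was −0.04 (95% interval −0.40 to 0.31, limma adjusted p = 0.97). HIF-2α is controlled largely through the stability of the protein, which was not measured.

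Aco1 encodes iron regulatory protein 1, which binds the hairpins when it lacks its iron-sulfur cluster and is an aconitase when it has one (chr4:40090298-40146042, plus strand). Its levels were 58.2, 60.1 and 48.0 FPKM in mutants 1, 2 and 3, against 51.9, 62.7 and 50.3 FPKM in controls 1, 2 and 3. The groups overlapped almost wholly, and the log2 fold change of 0.01 was the smallest of the 10 (95% interval −0.28 to 0.30, limma adjusted p = 0.99).

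Set in order of level per length, the 10 genes spanned from storage to heme breakdown. Fth1 averaged 11451 FPKM over the 6 libraries, Ftl1 805, Slc40a1 458, Heph 117, Slc11a2 100.2, Aco1 55.2, Cybrd1 52.5, Tfrc 49.7, Epas1 39.4 and Hmox1 4.18 FPKM. Of the 9 pairs of neighbours in this order, 6 kept it in 6 of 6 libraries (exact paired sign-flip test, p = 0.03125, the smallest it can give, adjusted p = 0.047 over the 9 pairs). The order was taken from the means of these same libraries, and the test pooled both groups. Its p-values therefore only describe how steadily the order was kept and are no separate evidence for it. Heph and Slc11a2 kept it in 5 of 6 libraries (exact p = 0.25), Aco1 and Cybrd1 in 3 of 6 (exact p = 0.50), and Cybrd1 and Tfrc in 4 of 6 (exact p = 0.81), so these neighbours were not told apart. The ferroportin message was therefore above that of DMT1 in every library, in both groups.

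**Figure D4:**
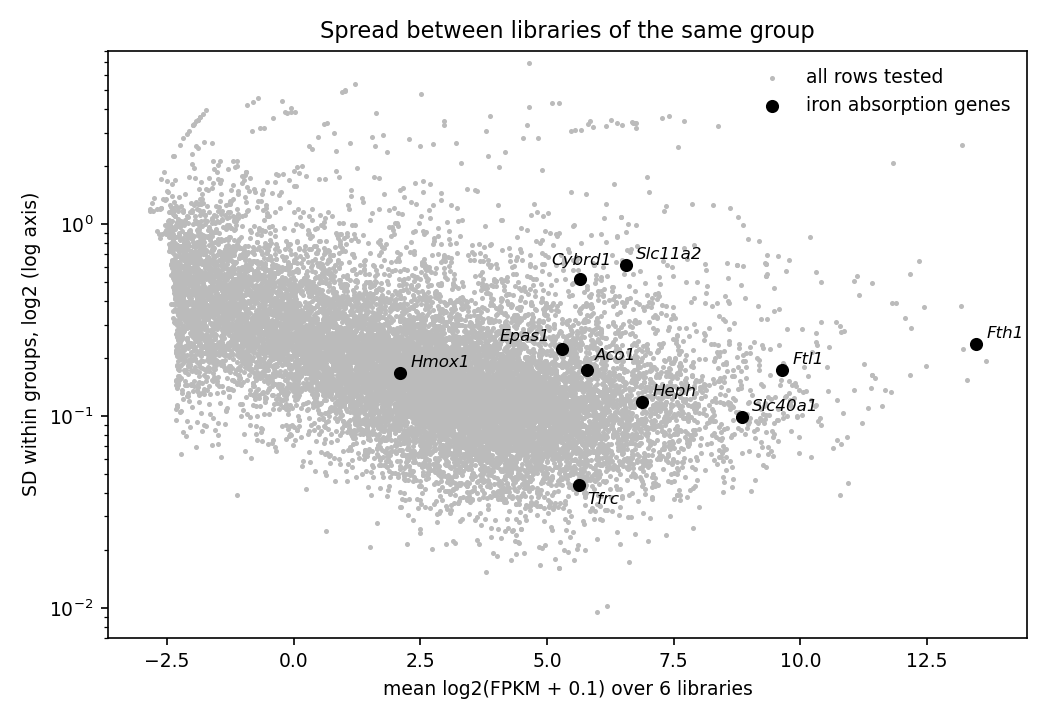
SD of log2 level within groups (log axis) against mean log2 level for all rows tested (grey) and for the 10 genes (black). Cybrd1 and Slc11a2 stand near the top of genes of like level, at the 97th and 95.4th percentile, and Tfrc near the bottom, at the 3.6th.

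The CV over all 6 libraries was 42.8% for Slc11a2 and 29.7% for Cybrd1, the pair that works at the brush border, against 6.56% for Slc40a1 and 7.47% for Heph, the pair that works in export. Fth1 (16.8%), Epas1 (14.01%), Ftl1 (11.3%), Hmox1 (11.03%), Aco1 (10.8%) and Tfrc (6.87%) lay between or near the lower pair. For Slc11a2 the CV was 64.6% among controls, which include control 3, and 11.98% among mutants, where it was close to that of Ftl1 (11.7%) and below that of Fth1 (17.6%). For Cybrd1 it was 36.5% among mutants and 26.04% among controls. These differences in CV were not tested. The largest single deviation from a gene's own mean was +0.94 (log2) for Slc11a2 in control 3, while Slc40a1 in the same library deviated by 0.01.

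**Figure D5:**
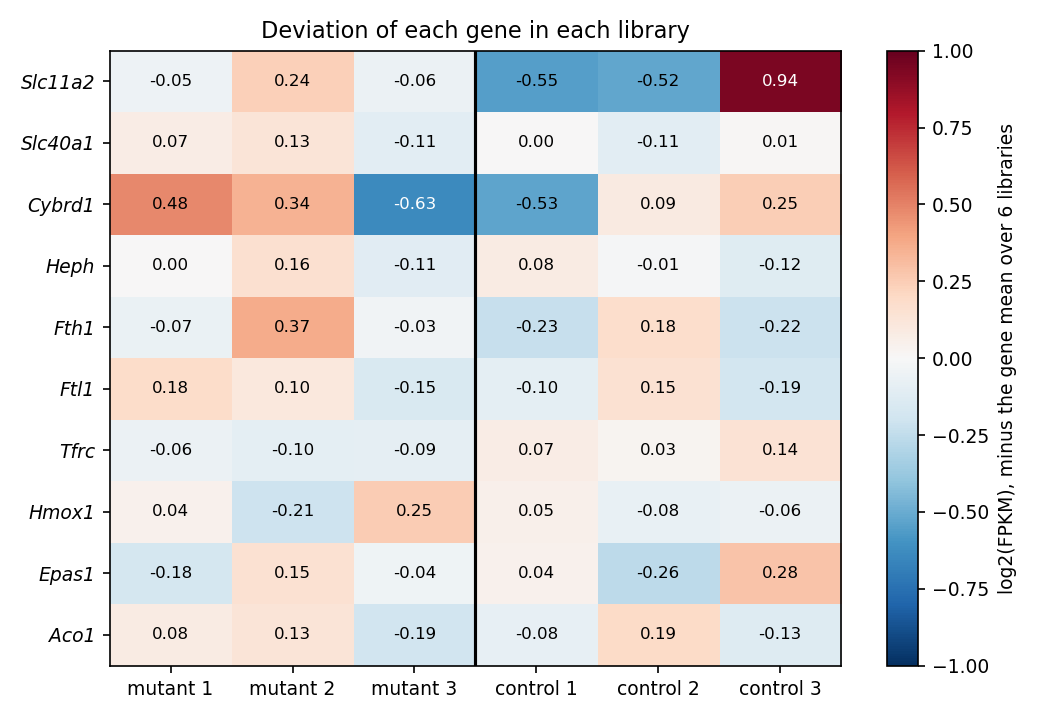
Log2 level of each gene in each library minus the gene's mean over the 6 libraries, mutants left of controls, with red above and blue below the mean. Slc11a2 runs from −0.55 in control 1 to 0.94 in control 3 and Cybrd1 from −0.63 in mutant 3 to 0.48 in mutant 1, while Slc40a1, Heph and Tfrc stay within 0.16 of their means.

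Co-variation among libraries was examined for all 45 pairs of the 10 genes. By the exact permutation test over 6 libraries 0 pairs passed adjustment over the 45 (smallest adjusted p = 0.70 for Pearson's r and 0.84 for Spearman's rho), 1 pair passed unadjusted with each measure, and 22 pairs had a positive r. Ftl1 and Aco1 were the most alike, with r = 0.93 (exact permutation p = 0.036, adjusted p = 0.70) and rho = 0.77 (exact p = 0.10). Both were lowest in library 3 of each group. Their r was 0.99 without mutant 1 and control 3, and 0.87 in the 4 male libraries.

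Slc11a2 and Epas1 followed, with r = 0.76 (exact permutation p = 0.078, adjusted p = 0.70) and rho = 0.60 (exact p = 0.24). This r was 0.89 without controls 1 and 3, 0.47 without control 3 alone and 0.47 in the 4 male libraries. Cybrd1 and Hmox1 had r = −0.72 (exact permutation p = 0.12, adjusted p = 0.70) and rho = −0.60 (exact p = 0.24). Without mutant 3 and control 1 their r was 0.29, and with any 1 library left out it ran from −0.91 to −0.41. In the male libraries it was −0.41.

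Fth1 and Aco1 had r = 0.71 (exact permutation p = 0.13, adjusted p = 0.70) and rho = 0.54 (exact p = 0.30). Without mutant 2 and control 2 their r was 0.09, with any 1 library left out it ran from 0.64 to 0.85, and it was 0.81 in the male libraries. Hmox1 and Aco1 had r = −0.69 (exact permutation p = 0.13, adjusted p = 0.70) and rho = −0.77 (exact p = 0.10), with r = −0.22 without mutants 2 and 3 and −0.63 in the male libraries. When levels were taken relative to the enterocyte markers of the same library, Fth1 and Aco1 had r = −0.74 and Hmox1 and Aco1 had r = 0.05. No female library value can be given, since there were only 2. Slc11a2 and Cybrd1, both targets of HIF-2α in the mouse, had r = 0.44 (exact permutation p = 0.39, adjusted p = 0.75) and rho = 0.60 (exact p = 0.24), a pair named after its values were seen.

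The wider iron pathway was read from 7 lists with 100 genes, of which 91 passed the filter. Of these 91, limma called 0 at an adjusted p of 0.05, and 4 had an unadjusted p under 0.05 (4.4%, against 5.81% of all rows), with a median log2 fold change of −0.02 beside −0.05 over all rows. Tfr2, Ftl2, Fth1-ps, Flvcr1 and Flvcr2 were not analysed here.

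Among 18 other genes of iron uptake, storage and export 0 passed, with a median of −0.03. Slc46a1, the proton-coupled folate transporter also known as a heme carrier, was at 304, 403 and 357 FPKM in mutants 1, 2 and 3, against 246, 317 and 283 FPKM in controls 1, 2 and 3, and the groups overlapped (log2 fold change 0.33, limma adjusted p = 0.79). Steap2, a metalloreductase, had a log2 fold change of −0.31 and Slc25a37, the mitochondrial iron importer mitoferrin 1, of −0.14 (limma adjusted p = 0.79 each).

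The hepcidin axis (9 tested, 0 passed, median 0.02) and the oxygen-sensing list (17 tested, 0 passed, median −0.05) held no call. Bmp6, the signal that induces hepcidin in the liver, had a log2 fold change of −0.30, Tmprss6, a protease that restrains it, of 0.37, and Hfe, the gene mutated in hereditary haemochromatosis, of 0.19 (limma adjusted p from 0.79 to 0.80). Tmprss6 was at 0.160, 0.156 and 0.230 FPKM in mutants 1, 2 and 3, against 0.119, 0.111 and 0.118 FPKM in controls 1, 2 and 3, close to the filter in both groups. Among oxygen-sensing genes Arnt, the partner of HIF-2α, had −0.14, Egln2, a prolyl hydroxylase, 0.06 and Adm, a hypoxia target, −0.23 (limma adjusted p from 0.80 to 0.84). Ankrd37, another hypoxia target, named after its values were seen, was at 4.56, 6.87 and 5.61 FPKM in mutants 1, 2 and 3, against 3.17, 5.93 and 10.3 FPKM in controls 1, 2 and 3, and was highest in control 3, like Slc11a2 and Epas1. Other hypoxia genes were mixed in this. Vegfa (33.6 FPKM) and Ndrg1 (21.9 FPKM) were also highest in control 3. Slc2a1 was lowest there (8.52 FPKM), Egln3 was lower there (19.8 FPKM) than in controls 1 and 2 (32.8 and 38.8 FPKM), and Car9 was highest in control 2 (89.0 FPKM).

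In heme handling and synthesis (15 tested, 0 passed, median 0.02) the lead was Alad, the enzyme that forms porphobilinogen. It was at 90.0, 90.0 and 85.1 FPKM in mutants 1, 2 and 3, against 73.2, 62.1 and 35.2 FPKM in controls 1, 2 and 3. Every mutant lay above every control, as in 497 rows (3.13%), and the log2 fold change was 0.70 (95% interval 0.10 to 1.30, limma adjusted p = 0.79). Control 3, the highest library for Slc11a2, was the lowest for Alad, and without it the log2 fold change was 0.39. Hp, haptoglobin, had −0.65 at under 1 FPKM (limma adjusted p = 0.79).

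The iron-sulfur cluster list (13 tested, 0 passed, median 0.01) held the narrowest range, from −0.12 to 0.11, led by Nfs1, the cysteine desulfurase (0.07), Hscb, a cochaperone (0.09), and Glrx5, a glutaredoxin (0.11). The NRF2 target list (10 tested, 0 passed, median −0.05) was led by Gclc (−0.16) and Slc7a11 (−0.20), of glutathione synthesis and cystine uptake, and Srxn1, sulfiredoxin (0.11).

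In the copper list (9 tested, 0 passed, median −0.06) Mt1, a metal-binding metallothionein, had the highest log2 fold change of the 7 lists. It was at 907, 863 and 1160 FPKM in mutants 1, 2 and 3, against 319, 301 and 376 FPKM in controls 1, 2 and 3. The groups were far apart, at 977 ± 161 FPKM in mutants and 332 ± 39.2 FPKM in controls (SD, n = 3 each), with a log2 fold change of 1.55 (95% interval 1.20 to 1.90, limma adjusted p = 0.25). With the replicate number as a block it passed (limma adjusted p = 0.031), as it did with sex as a covariate (0.019), and over all settings its adjusted p ran from 0.019 to 0.61. Mt2, another metallothionein, did not share this rise. It was at 34.2, 83.5 and 180 FPKM in mutants 1, 2 and 3, against 78.6, 121 and 146 FPKM in controls 1, 2 and 3, and the groups overlapped. Slc31a1, the copper importer CTR1, had −0.22 (limma adjusted p = 0.79) and Atox1, the copper chaperone, 0.24 (limma adjusted p = 0.79). Every mutant lay above every control for Atox1, as in 497 of all 15864 rows (3.13%). The same held for Tmprss6, Alad, Nfs1 and Mt1. For Slc25a37 and Slc7a11 every mutant lay below every control, as in 9.92% of rows.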

How the data were processed

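Whole-wall duodenal RNA of 3 mutant and 3 control mice was sequenced, 1 library each. Groups and replicate numbers came from the labels. The submitters' processing notes name CASAVA 1.8.2, DESeq, Cufflinks, TopHat and the build mm9, with no version for the other tools and no word on strand. The authors' gene and transcript tables hold FPKM with an interval, and the transcript tables coverage as well, per the file headers. The authors' deposited comparison holds mean counts divided by size factors (a signal), their fold as a ratio and a log2 value, and p-values.

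The 10 genes and the lists were chosen with earlier results of these data known. limma 3.58.1 (R 4.3.3) with a trended prior variance was fitted to log2(FPKM + 0.1) on all rows with a mean of at least 0.1 FPKM, with no covariate, with Benjamini-Hochberg adjustment over all rows tested, called at 0.05. Fold changes are on that scale. Permutation tests (Python 3.11.15, scipy 1.17.1) were exact and two-sided. Depth was read from the interval widths, since the values are not counts. This was checked on genes with 1 transcript and an implied read number below a set limit (8050 to 9148 genes a library). For 87.8% to 88.2% of these genes the implied read number lay within 0.05 of a whole number. No count test was run. The labels do not say that animals came from separate litters, so p-values measure the spread between these mice.

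Genes named besides the 10 were, in each list, the 3 with the smallest unadjusted p (some items are not reported here), and the 3 most alike in pattern to Slc11a2, Slc40a1 and Cybrd1. Pairs named were the 5 with the largest absolute r. Same-numbered mutants and controls deviated together (r = 0.11, 0.21 and 0.39 for numbers 1, 2 and 3), against −0.28 to 0.13 for different numbers, so the replicate block was treated as a pairing, though number 1 matched no better than a different-numbered pair. Number 3 is also the female pair. Alternatives were other pseudocounts and filters, trimmed mean and quantile scaling, limma without trend, library quality weights, levels relative to enterocyte markers, sex or pancreatic markers as a covariate, and each library left out. Fits on male libraries only and the test of the difference between sexes were added after seeing the data. Hairpins were searched in GENCODE vM1 on mm9.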

Additional observations from a re-analysis of the deposited data

Results flagged for a closer look

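Of 35 results examined, 6 are given here because the female mutant lay on one side of the female control while both male mutants lay on the other side of both male controls. Others, such as Epas1, also had effects of opposite sign (−0.32 in females and 0.096 in males), but with male groups that overlapped. The sexes were read from the data, the test was added after seeing it, and the female effect has no replicate. The effects below are mutant minus control, and in females they compare 1 mouse with 1 mouse. Their SEs rest on the male libraries and on the spread of other rows. For Slc11a2 the effect was −0.995 (log2) in females and 0.63 in males, a difference of −1.62 (female minus male, SE 0.21). For its hairpin transcript NM_001146161 the effects were −1.18 in females and 0.72 in males, a difference of −1.90 (SE 0.21, limma adjusted p = 0.40). The share of that transcript differed by −16.7 percentage points, from −11.2 points in females and 5.52 points in males, and this difference was not tested. Cybrd1 had −0.88 in females and 0.63 in males, a difference of −1.51 (SE 0.37, limma adjusted p = 1.00). Slc40a1 had −0.12 in females and 0.15 in males, a difference of −0.28 (limma adjusted p = 1.00), and its transcript NM_016917 the same −0.28 (limma adjusted p = 1.00). None passed adjustment, while 2 of all 15864 rows did (0.0126%) and 453 had an unadjusted p under 0.05 (2.86%). The female libraries were also the 2 highest in pancreatic markers, so sex and pancreatic RNA cannot be told apart. The female control was the animal with no reporter allele named.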

How the results depend on the processing

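None of the 10 genes and none of the 3 transcripts passed an adjusted p of 0.05 under any alternative run. Among these and the 91 list genes the replicate block changed no call except that of Mt1: the count of list genes called was 1 with the replicate block and 1 with the sex covariate, in each case Mt1. Over the whole tables the block called 1 gene higher and 1 lower, against 0, and 0 transcripts, against 9. The following log2 fold changes turned sign, the cause was not tested, and all stayed uncalled. With quantile normalization they were −0.0017 for Slc40a1, −0.014 for Heph, −5.7e-05 for Ftl1 and −0.011 for Aco1. Relative to enterocyte markers they were −0.027 for Heph, −0.0011 for Hmox1 and −0.046 for Aco1, and r was −0.74 for Fth1 with Aco1 and 0.046 for Hmox1 with Aco1. With the pancreatic covariate they were −0.40 for Slc11a2 and −0.0097 for Cybrd1, and with quality weights −0.0054 for Aco1. In male libraries only they were −0.069 for Hmox1, 0.096 for Epas1, −0.0081 for Hscb and 0.0048 for Gclc, and the share of the Slc11a2 hairpin form differed by 5.52 points (exact p = 0.33). With 1 library left out the ranges were −0.17 to 0.58 for Slc11a2, −0.21 to 0.64 for NM_001146161, −0.10 to 0.48 for Cybrd1, −0.18 to 0.086 for Epas1, −0.053 to 0.17 for Hmox1, −0.049 to 0.11 for Aco1, −0.039 to 0.095 for Heph, −0.0037 to 0.17 for Glrx5, −2.41 to 3.63 points for the share, −0.01 to 0.12 for the median of the 10 genes and −0.04 to 0.02 for that of the 91. The highest values of Slc11a2, its hairpin form and the share were those without control 3. The median of the 10 genes was −0.00087 with quantile normalization, and that of the 91 was 0.02 with trimmed mean scaling, 4.3e-05 with quantile normalization and 0.0075 with the pancreatic covariate. These medians carry no call. All other values for single genes, transcripts and pairs kept direction and call. The unadjusted split over all rows was 237 higher and 685 lower, and 446 and 453 with trimmed mean scaling. Depth limits Hmox1 most, with 83 to 148 implied reads.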
